A study of Mus musculus with 11 samples.

Results

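The 44 genes described here are the proliferation genes of the cell cycle: genes that cells express while they copy their DNA or divide, with the cyclins and regulators of G1 and the brake Cdkn1b beside them. They were chosen by name, and each of the 44 symbols matched 1 of the 50686 gene identifiers in the deposited tables. The libraries came from GL261 tumours, a mouse glioma grown from GL261 cells injected into the brain of C57BL/6 mice that carried loxP sites in Rheb1, whose product activates the growth kinase complex mTORC1. Mice received tamoxifen 3 weeks before injection, were injected at 6 weeks of age and were sampled 3 weeks after injection. The libraries labelled KO were from mice with a tamoxifen-inducible Cre inserted at Cx3cr1, a gene of microglia and some blood-derived macrophages, so their Rheb1 deletion and their Cx3cr1 allele go together. Those labelled WT were from mice with floxed Rheb1 that had tamoxifen but, by the study's description, no Cre. Bulk tumours gave 3 WT libraries (replicates 35, 38 and 110) and 3 KO libraries (26, 36 and 37). TAM-MG, the microglia-like tumour-associated cells sorted as CD11b+ CD45low, gave 2 WT libraries (74 and 78) and 3 KO libraries (54, 63 and 65). The GL261 cells carry no Cre, so a bulk KO tumour mixes tumour cells that kept Rheb1 with host cells of which a share lost it.

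A cell that enters the cycle first makes D cyclins (Ccnd1, Ccnd2 and Ccnd3), which with CDK4 or CDK6 release the E2F factors from the retinoblastoma protein. E2F then drives the genes of DNA replication, such as the MCM helicase, the sliding clamp Pcna and ribonucleotide reductase. A later wave, driven by the MuvB complex with Mybl2 and Foxm1, supplies the cyclin B kinase Cdk1 and the genes of spindle, kinetochore and cytokinesis. mTORC1 is known to raise the translation of D cyclins and the supply of nucleotides in dividing cells. Microglia in healthy brain seldom divide, whereas they do so in tumours and after injury, and GL261 cells divide fast. The messenger RNA of most of these genes is thus a readout of the share of cells in cycle in a sample.

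Counts summed to between 14940787 and 21991348 per bulk library and between 20765767 and 29947977 per TAM-MG library. The members held between 0.147% and 0.494% of them, and all 44 passed the filter on low counts in each comparison. The targeted gene Rheb measured 348, 235 and 329 CPM (the count as a share of the library, in parts of 1000000, with TMM scaling within the experiment) in WT bulk tumours and 225, 125 and 146 CPM in KO. In TAM-MG it measured 86.5 and 164 CPM in WT and 67.8, 70.0 and 71.2 CPM in KO. The KO libraries lay below WT in both experiments, at 0.544 times the WT level in bulk tumours (adjusted p = 0.426 by edgeR) and 0.555 times in TAM-MG (adjusted p = 0.552 by edgeR). The same order held for 9.23% of all genes in bulk tumours, 11.5% in TAM-MG and 1.26% of genes tested in both. Reads outside the deleted exon are still counted, and bulk tumours hold GL261 cells that kept Rheb1. These values therefore cannot check the deletion or the labels, and the cause of the lower level in bulk tumours was not tested. Microglial identity genes were present in the sort: 10 resting microglia markers summed to between 19300 and 34100 CPM in TAM-MG, whereas the 11 markers of T and NK cells, of which Cd4 and Ncr1 were at 0 counts in all 5 libraries, summed to between 8.74 and 26.3 CPM. The bulk WT library of replicate 35 had 0 counts of the Y-linked gene Ddx3y and 10643 of Xist, while each of the others had at least 868 counts of Ddx3y. For 14 members, among them Ccnd1, Ccnd3, Cdk2, Foxm1, Top2a and Kif20a, exons overlap another gene, and the counting of strand is not given in the sources used here.

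In TAM-MG the comparison of KO with WT asks whether loss of Rheb1 in microglia goes with a different level of these genes in the same cells. The log2 fold change was negative for 37 of 44 members (84.1%), against 46.5% of the 14872 genes tested, with a median of -0.80 against 0.08 over all genes. For 19 of 44 members (43.2%) all 3 KO libraries lay below both WT libraries, against 11.5% of all genes, and for 0 members did they lie above, against 14.6%. No single member passed the test. The edgeR quasi-likelihood test, with a call at an adjusted p under 0.05 and at least 1.5-fold, called 0 of 44 members, as it called 0.0% of all genes. At an unadjusted p under 0.05, 7 members were lower in KO (2.30% of all genes) and 0 were higher (5.47% of all genes). DESeq2, which called 3.21% of all genes, called 1 member, Ccnd1, and edgeR's likelihood ratio test, which called 1.65%, called none.

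Of the D cyclins, Ccnd1 had the smallest p. It measured 248 and 217 CPM in WT and 127, 139 and 130 CPM in KO. Both WT libraries were above all KO libraries, which differed little among themselves (132 ± 5.86 CPM, SD, n = 3, against 233 ± 21.9, n = 2). The log2 fold change was -0.82 (SE 0.23, adjusted p = 0.502 by edgeR's quasi-likelihood test and 0.0416 by DESeq2), or 0.568 times the WT level, and it ran from -0.90 to -0.70 with each library left out in turn. Ccnd2 measured 193 and 70.4 CPM in WT and 191, 206 and 191 CPM in KO, where only WT replicate 78 was low and the groups overlapped (log2 fold change 0.57, SE 0.45). Ccnd3 followed neither group, with 175 and 46.4 CPM in WT and 169, 31.1 and 18.4 CPM in KO (-0.60, SE 1.04).

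Of the genes of DNA replication 9 of 10 were negative, and for 6 of 10 the KO libraries all lay below WT. Mcm6, a subunit of the MCM helicase that opens DNA at the fork, measured 99.7 and 159 CPM in WT and 76.2, 36.9 and 34.2 CPM in KO (log2 fold change -1.40, SE 0.46, adjusted p = 0.524 by edgeR). KO replicates 63 and 65 were far below the WT mean of 130 CPM and KO replicate 54 lay between. Its partner Mcm2 measured 89.3 and 80.8 CPM in WT and 56.7, 36.7 and 36.2 CPM in KO (-0.98, SE 0.34). Mcm3 measured 149 and 232 CPM in WT and 133, 87.0 and 96.8 CPM in KO (-0.85, SE 0.33), so its groups were apart by a small gap. Pcna, which holds DNA polymerase on its template, measured 158 and 187 CPM in WT and 143, 89.5 and 121 CPM in KO (-0.55, SE 0.30). Rrm1, the large subunit of ribonucleotide reductase, was the exception at 43.6 and 96.8 CPM in WT and 134, 64.6 and 47.3 CPM in KO (0.23, SE 0.58), while Rrm2, the subunit whose level follows S phase, was at -1.02 (SE 0.45) with all KO libraries below WT.

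Among regulators of entry into S phase, 5 of 7 were negative. Cdc6, which loads the MCM helicase onto origins, measured 43.1 and 18.0 CPM in WT and 13.1, 10.7 and 9.81 CPM in KO (-1.45, SE 0.63). Cyclin E1 (Ccne1), a partner of Cdk2, was at 54.3 and 31.9 CPM in WT and at 16.1 and 10.9 CPM in 2 KO libraries and 0 counts in KO replicate 65. Cdk2 itself did not share this order, with 49.4 and 36.1 CPM in WT and 64.2, 27.4 and 82.6 CPM in KO (0.44, SE 0.53).

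Of the 11 regulators of G2 and mitosis, 9 were negative. Cdk1, the kinase that starts mitosis, measured 137 and 139 CPM in WT and 110, 45.1 and 42.3 CPM in KO (-1.07, SE 0.48), a gap between groups of which KO replicate 54 was the upper edge. Ccnb1, its cyclin, measured 60.3 and 160 CPM in WT and 58.4, 22.5 and 42.3 CPM in KO (-1.42, SE 0.57). For Mybl2 the WT libraries held 0 and 2 counts and the KO libraries 83, 1 and 198, so its positive log2 fold change depends on the count added to zeros and is not read as a size.

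Of the 12 genes of spindle, checkpoint and chromosomes, 11 were negative. Bub1b, a kinase-like part of the spindle checkpoint, measured 39.8 and 41.8 CPM in WT and 11, 8.60 and 20.2 CPM in KO (-1.62, SE 0.56), with a clear gap between the genotypes. Top2a, the topoisomerase that untangles sister chromatids, measured 113 and 276 CPM in WT and 104, 65.9 and 73.3 CPM in KO (-1.26, SE 0.44), with KO replicate 54 close to WT replicate 74. Mki67, which coats mitotic chromosomes and is the usual proliferation stain, measured 103 and 52.8 CPM in WT and 60.5, 11 and 48.0 CPM in KO (-0.97, SE 0.73), and its groups overlapped. Cdkn1b, the inhibitor p27 that holds cells in G1, measured 28.6 and 30.5 CPM in WT and 11.1, 36.7 and 40.6 CPM in KO (-0.01, SE 0.64).

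The KO libraries were not alike. Replicate 54 was the highest of the 3 KO libraries for 75.0% of members, against 36.1% of all genes, and replicate 63 was the lowest for 56.8% of members, against 30.7%. The 44 members summed to 3140 and 3410 CPM in WT and to 2850, 1460 and 1710 CPM in KO, so the sums did not overlap, with replicate 54 nearest to WT. With the means of log CPM set equal between libraries, the median of the members was -1.23 and that of all genes -0.34. Without replicate 54 the median log2 fold change of the members was -1.22 and that of all genes 0.04. Without replicate 63 these were -0.54 and 0.03, and without WT replicate 78 they were -0.56 and 0.39. Markers of the sorted cell and of its neighbours differed between these libraries as well, though not every list by genotype. The 12 markers of microglia and macrophages were evenly split, with 6 negative. They summed to 41600 and 57100 CPM in WT and 55800, 44900 and 49800 CPM in KO. All 10 resting microglia markers had a positive log2 fold change (median 0.69), and their sum was 19300 and 24300 CPM in WT and 22700, 34100 and 32000 CPM in KO, lowest among KO in replicate 54. The 10 markers of monocytes and blood macrophages summed to 913 and 516 CPM in WT and 1180, 347 and 386 CPM in KO. The high sum of replicate 54 was mostly Fn1, at 529 and 148 CPM in WT and 818, 136 and 165 CPM in KO. Replicate 54 was the highest KO library for 5 of the 10 markers and the lowest for 3, among them Ccr2 and Itga4. The 8 markers of neural precursors and glioma, of which 5 could be tested, summed to 51.2 and 37.3 CPM in WT and 26.7, 7.76 and 35.2 CPM in KO. The part of these markers in the result was not tested.

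**Figure D1:**
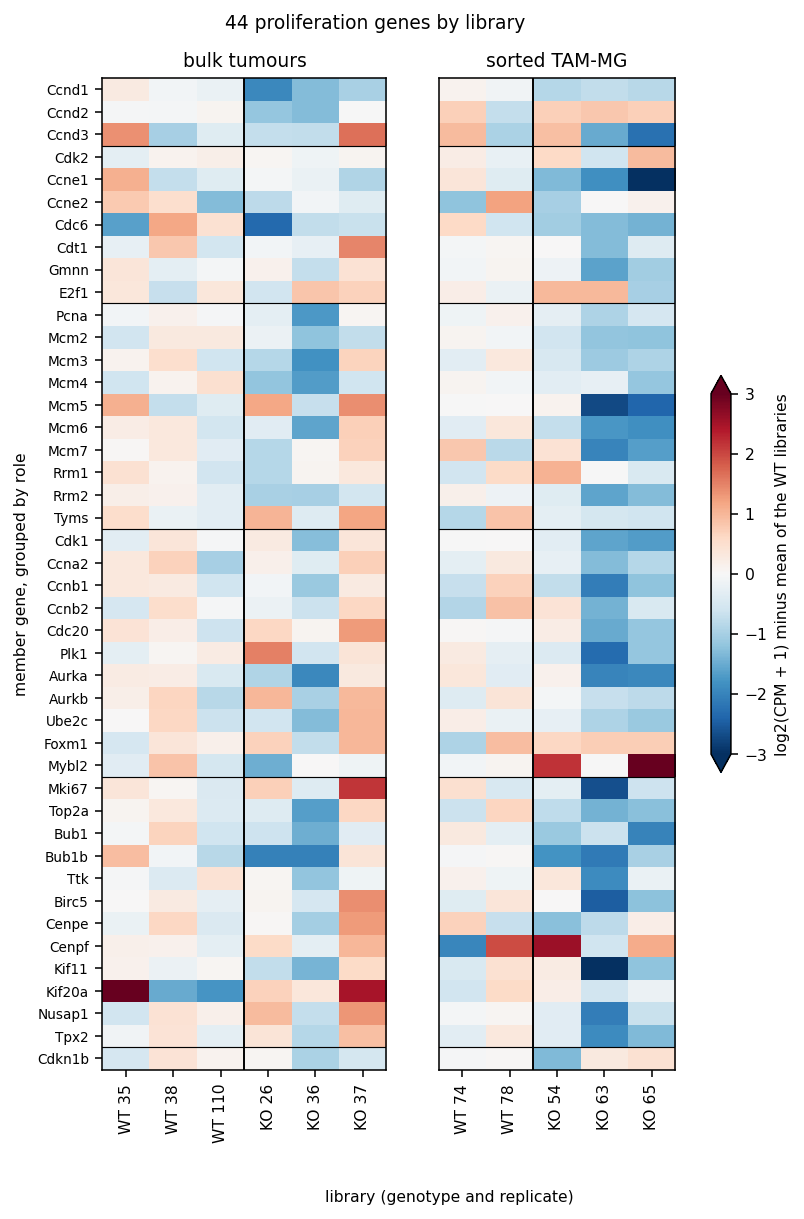
Each of the 44 members (rows, grouped by role and separated by lines) in each library (columns), as log2(CPM + 1) minus the mean of the WT libraries of the same experiment, in blue below and red above that mean. TAM-MG KO replicates 63 and 65 are blue over most rows while replicate 54 is pale, and in bulk tumours KO replicate 36 is mostly blue and replicate 37 mostly red.

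**Figure D2:**
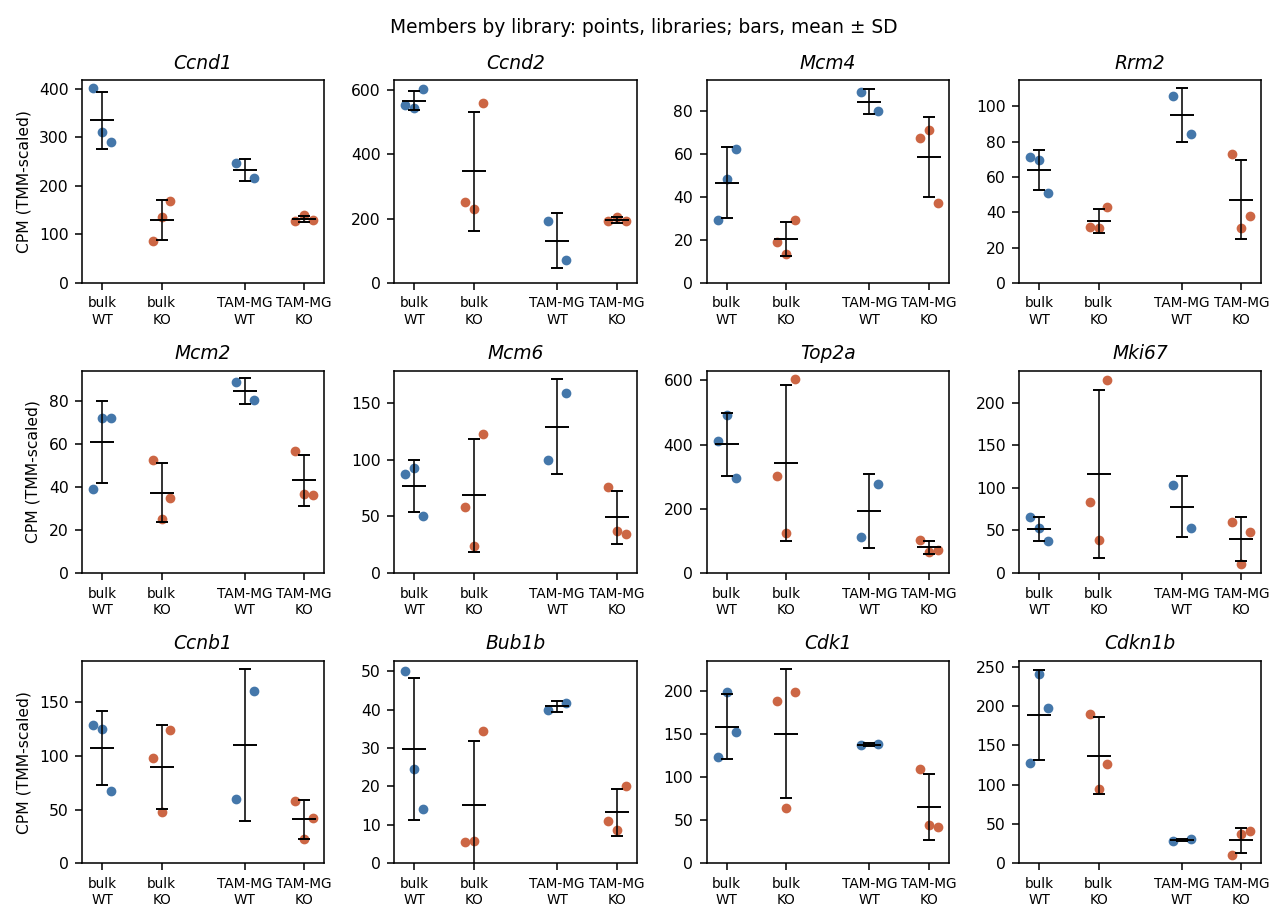
CPM of 12 members by library (points), with the mean and SD of each group (bars, cut off at 0 for Bub1b), for bulk tumours (3 WT, 3 KO) and TAM-MG (2 WT, 3 KO). Ccnd1 has no overlap between genotypes in either experiment, with KO means of 129 CPM in bulk tumours and 132 CPM in TAM-MG against WT means of 335 and 233 CPM, whereas Mki67 overlaps in both.

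In TAM-MG 7 members had an unadjusted p under 0.05, and the promoters of the 6 with a RefSeq promoter entry (250 bases before to 50 after the start of the gene) are shown so that the letters known to be bound by E2F and by the factors of the mitotic wave can be read beside these values. Capitals mark TTTGAA or TTTAAA (the cell cycle homology region, CHR), TTTCCCGC, TTTGGCGC, TTTCGCGC or TTTGCCGC (E2F) and CCAAT (NF-Y), on either strand, and adjacent or overlapping matches run together. The sequences are from RefSeq on GRCm38.p6 and are written 5′ to 3′ on the strand of the gene. Mcm6 is at chr1:128359656-128359955 (minus strand), Bub1b at chr2:118597961-118598260 (plus), Top2a at chr11:99024140-99024439 (minus), Mcm2 at chr6:88898731-88899030 (minus), Mcm3 at chr1:20820263-20820562 (minus) and Ccnb1 at chr13:100786437-100786736 (minus).
Mcm6: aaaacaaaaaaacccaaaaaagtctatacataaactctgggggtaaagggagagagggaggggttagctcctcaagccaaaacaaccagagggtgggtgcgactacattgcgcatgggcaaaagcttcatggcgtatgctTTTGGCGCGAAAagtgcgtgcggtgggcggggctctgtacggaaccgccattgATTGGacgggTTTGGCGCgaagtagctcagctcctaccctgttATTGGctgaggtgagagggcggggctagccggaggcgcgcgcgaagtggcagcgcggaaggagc
Bub1b: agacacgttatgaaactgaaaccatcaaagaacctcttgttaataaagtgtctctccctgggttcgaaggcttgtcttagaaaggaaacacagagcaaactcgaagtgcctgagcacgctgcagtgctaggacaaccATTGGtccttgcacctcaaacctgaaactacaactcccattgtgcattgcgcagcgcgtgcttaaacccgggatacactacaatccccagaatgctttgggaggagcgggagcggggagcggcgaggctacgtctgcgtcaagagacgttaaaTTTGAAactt
Top2a: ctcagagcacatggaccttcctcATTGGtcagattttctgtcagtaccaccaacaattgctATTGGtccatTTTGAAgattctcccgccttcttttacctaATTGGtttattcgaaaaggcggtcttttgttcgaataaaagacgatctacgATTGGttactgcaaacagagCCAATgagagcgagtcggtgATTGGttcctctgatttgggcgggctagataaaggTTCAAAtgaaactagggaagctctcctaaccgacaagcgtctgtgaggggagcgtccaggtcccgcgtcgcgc
Mcm2: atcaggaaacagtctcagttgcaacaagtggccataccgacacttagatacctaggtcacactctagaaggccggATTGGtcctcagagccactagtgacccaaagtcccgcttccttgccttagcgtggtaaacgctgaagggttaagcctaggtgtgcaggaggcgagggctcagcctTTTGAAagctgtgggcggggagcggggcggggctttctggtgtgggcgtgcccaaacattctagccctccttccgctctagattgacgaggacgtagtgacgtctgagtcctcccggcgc
Mcm3: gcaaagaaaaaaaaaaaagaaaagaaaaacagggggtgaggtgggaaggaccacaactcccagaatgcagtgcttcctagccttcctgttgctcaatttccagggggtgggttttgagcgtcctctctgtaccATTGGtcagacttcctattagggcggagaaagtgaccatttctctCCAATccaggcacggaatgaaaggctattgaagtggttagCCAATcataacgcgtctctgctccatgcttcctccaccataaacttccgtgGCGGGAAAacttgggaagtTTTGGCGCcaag
Ccnb1: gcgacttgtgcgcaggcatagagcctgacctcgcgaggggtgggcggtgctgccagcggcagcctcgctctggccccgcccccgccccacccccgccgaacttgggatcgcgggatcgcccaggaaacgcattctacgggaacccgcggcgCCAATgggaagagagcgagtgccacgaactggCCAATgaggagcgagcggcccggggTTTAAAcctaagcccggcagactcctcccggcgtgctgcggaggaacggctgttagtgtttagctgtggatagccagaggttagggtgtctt

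Mcm6 held 3 E2F and 2 CCAAT matches and Mcm3 held 2 and 3, with no CHR match in either, whereas Top2a held 2 CHR and 6 CCAAT matches, Ccnb1 1 CHR and 2 CCAAT matches, and Mcm2 and Bub1b 1 of each of these, with no E2F match in any of them. Of the 44 members, 34 had promoter entries, with 36 windows. CCAAT was in 75.0% of these windows against 37.4% of the 32851 RefSeq promoters of this length, a CHR sequence in 55.6% against 27.6%, and an E2F sequence in 22.2% against 2.26%. CHR letters were in 87.5% of the windows of G2 and mitosis regulators and in 80.0% of those of spindle and chromosome genes, but in 30.0% of those of DNA replication genes. E2F letters were in 60.0% of the windows of G1 and S regulators, in 40.0% of those of replication genes and in 0.0% of those of spindle and chromosome genes. The 15 promoters of members whose TAM-MG KO libraries all lay below WT held CHR in 60.0%, E2F in 26.7% and CCAAT in 80.0%, beside 52.4%, 19.0% and 71.4% of the other 21 windows. These matches describe letters in a fixed window and give no occupancy.

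In bulk tumours the same comparison covers tumour cells and host cells together, and fewer cells of a type and less RNA per cell cannot be told apart. The members as a group were split: 27 of 44 (61.4%) had a negative log2 fold change, against 49.8% of the 17028 genes tested, and the median was -0.11 against 0.00. For 3 members (6.82%), Ccnd1, Mcm4 and Rrm2, all KO libraries lay below all WT libraries, against 9.23% of all genes, and for 0 members above, against 7.82%. The edgeR quasi-likelihood test called 0 members, as it called 0.0% of all genes. At an unadjusted p under 0.05 the same 3 members were lower (5.19% of all genes) and 0 were higher (3.82%). Ccnd1 was the 1 member called by DESeq2, which called 2.78% of all genes, and by the likelihood ratio test, which called 2.25%.

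Ccnd1 measured 402, 312 and 291 CPM in WT tumours and 85.5, 135 and 168 CPM in KO tumours. All WT tumours were far above all KO tumours, and the log2 fold change was -1.37 (SE 0.33, adjusted p = 0.190 by the quasi-likelihood test, 0.0143 by the likelihood ratio test and 0.00349 by DESeq2). With each library left out in turn it ran from -1.61 to -1.15, and without WT replicate 35 it was -1.25. Ccnd2, a D cyclin of neural precursors among other cells, measured 554, 546 and 603 CPM in WT and 252, 229 and 560 CPM in KO, where KO replicate 37 was at the WT level (-0.71, SE 0.36). Ccnd3 measured 35, 5.93 and 9.74 CPM in WT and 7.47, 7.29 and 42.9 CPM in KO, with 1 high library in each group.

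Of the replication genes, 7 of 10 were negative. Mcm4 measured 29.3, 48.3 and 62.4 CPM in WT and 19.1, 13.2 and 29.0 CPM in KO (log2 fold change -1.19, SE 0.52, adjusted p = 0.527 by edgeR), where the groups met but did not overlap. Rrm2 measured 71.4, 69.3 and 50.7 CPM in WT and 31.4, 31.2 and 42.8 CPM in KO (-0.86, SE 0.39, adjusted p = 0.547 by edgeR). Mcm2 measured 39.2, 72.2 and 72.2 CPM in WT and 52.5, 25.1 and 35.1 CPM in KO (-0.70, SE 0.44), and Pcna 108, 126 and 112 CPM in WT and 94.3, 34.3 and 119 CPM in KO (-0.49, SE 0.43). Both had overlapping groups. The origin licensing gene Cdc6 measured 8.12, 62.1 and 37.8 CPM in WT and 4.58, 16.0 and 16.6 CPM in KO (-1.54, SE 0.80), a wide spread in WT.

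The mitotic genes showed no common direction. Of the spindle and chromosome genes 6 of 12 were negative, and of the G2 and mitosis regulators 6 of 11. Mki67 measured 65.5, 52.7 and 37.5 CPM in WT and 83.9, 38.4 and 227 CPM in KO (log2 fold change 1.17, SE 0.56), and without KO replicate 37 the value was 0.23. Cdc20, the activator of the anaphase-promoting complex, measured 76.7, 65.5 and 37.1 CPM in WT and 88.5, 60.1 and 139 CPM in KO (0.68, SE 0.42). Top2a measured 412, 492 and 297 CPM in WT and 301, 124 and 603 CPM in KO (-0.23, SE 0.48), so that the KO libraries lay on both sides of the WT range. The highest KO tumour for Cdk1 was level with the highest WT tumour and KO replicate 36 was below all of them, with 124, 199 and 153 CPM in WT and 188, 64.0 and 199 CPM in KO (-0.08, SE 0.42). The brake Cdkn1b measured 128, 241 and 197 CPM in WT and 190, 94.3 and 126 CPM in KO (-0.46, SE 0.36).

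The spread among the KO tumours was wider than the difference between genotypes for most members. Replicate 37 was the highest KO library for 79.5% of members, against 36.1% of all genes, and replicate 36 the lowest for 79.5%, against 29.7%. The members summed to 3860, 4240 and 3210 CPM in WT and to 3210, 1820 and 5120 CPM in KO, so 1 KO tumour was below and 1 above the whole WT range. Without replicate 37 the median log2 fold change was -0.47 with 34 of 44 members negative, and without replicate 36 it was 0.12 with 16 negative. Without WT replicate 35, the library with no Ddx3y count, it was -0.10 with 23 negative. Markers of brain tissue differed among the KO tumours too. The sum of 8 neuron markers was 3710, 3670 and 1330 CPM in KO replicates 26, 36 and 37, and that of 7 astrocyte markers 3580, 4250 and 1270 CPM, beside 1930 to 2850 and 3000 to 4450 CPM in WT, so replicate 37 had the lowest of both. Of the 10 markers of monocytes and blood macrophages 7 were negative (median log2 fold change -1.27). Their sums overlapped, at 2910 to 4200 CPM in WT and 2070 to 3670 CPM in KO. By flow cytometry the study reported more blood-derived macrophages and fewer TAM-MG in KO tumours. Markers shared by microglia and macrophages followed genotype. All 12 markers of microglia and macrophages had a negative log2 fold change (median -1.32), and their sum was 2700, 2940 and 4700 CPM in WT and 858, 1230 and 1780 CPM in KO. Of 11 T and NK cell markers 7 could be tested, and all 7 were negative as well (median -2.04). For 3 of them all KO tumours lay below WT, against 9.23% of all genes, and 0 were called. The list was low in every tumour, summing to 9.79 to 31.3 CPM in KO and 50 to 158 CPM in WT. The study, in contrast, reported more helper and cytotoxic T cells in KO tumours. It did so by flow cytometry, by tissue staining and by cell fractions that it estimated from the RNA of bulk tumours. The 8 markers of neural precursors and glioma, in contrast, summed to 495, 563 and 680 CPM in WT and 536, 407 and 528 CPM in KO. The part of these markers in the members' values was not tested.

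**Figure D3:**
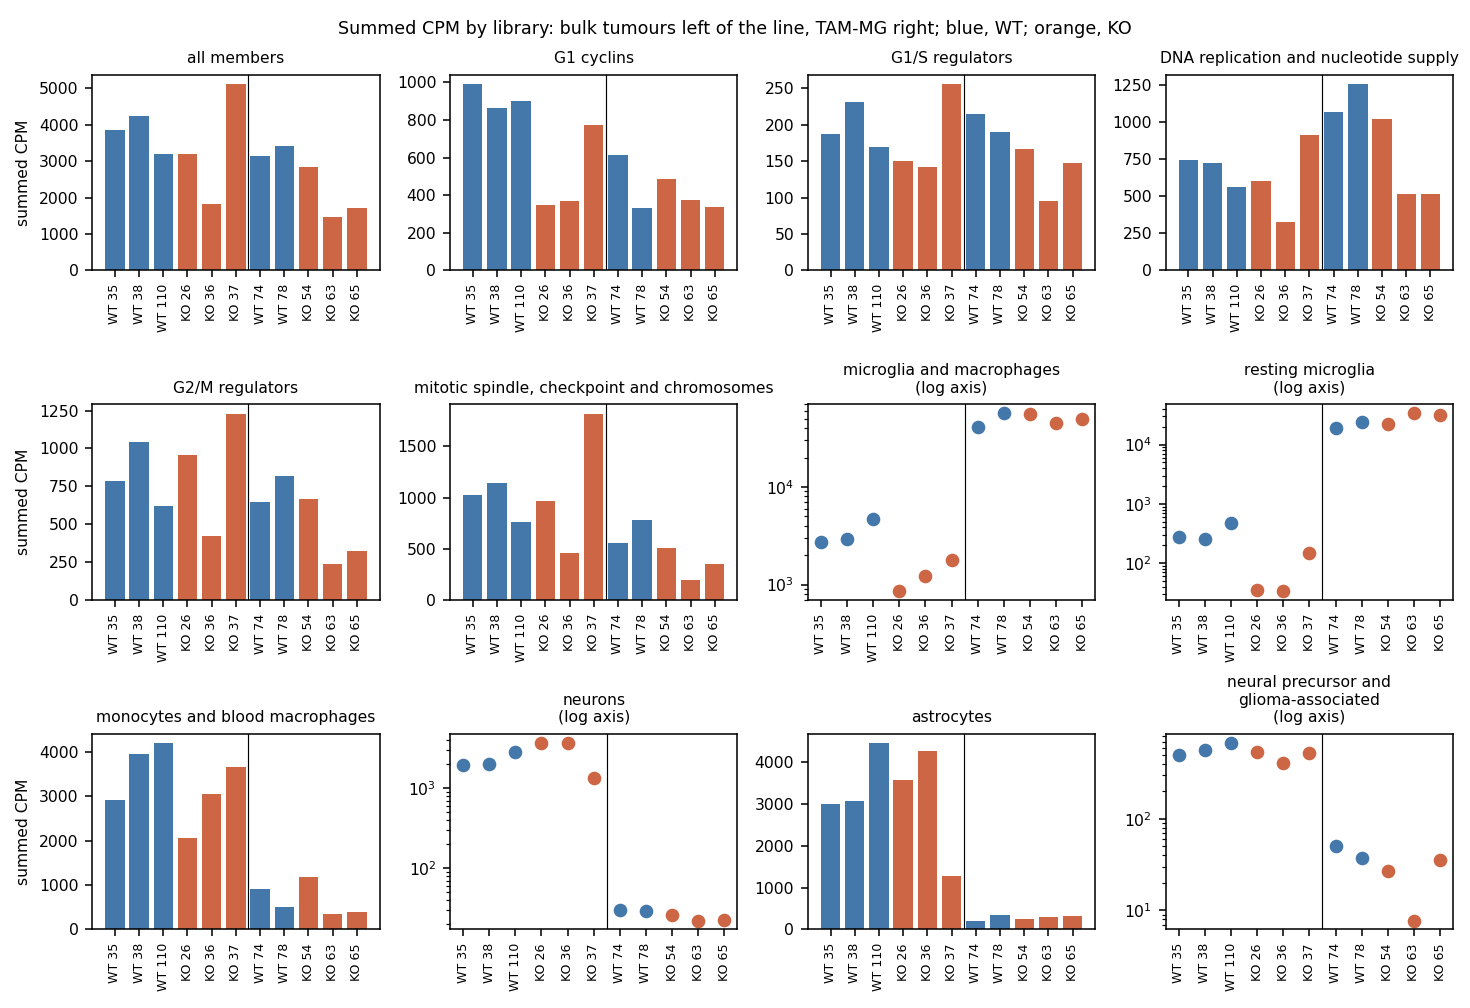
Summed CPM per library (TMM-scaled within each experiment) of the members, of 5 of their roles and of 6 marker lists, with WT in blue and KO in orange, bulk tumours left and TAM-MG right of the line; bars start at 0 and panels with points have a log axis. In bulk tumours the member sum is lowest in KO replicate 36 (1820 CPM) and highest in KO replicate 37 (5120 CPM), while the neuron and astrocyte markers are lowest in replicate 37, and in TAM-MG it is lowest in KO replicates 63 and 65 (1460 and 1710 CPM).

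The TPM values, made by Salmon and scaled within each table, gave the same sign as the counts for 42 of 44 members in TAM-MG and for 38 of 44 in bulk tumours. In bulk tumours 7 of 44 members had all KO libraries below WT in TPM, against 10.2% of the 12117 tested genes with a TPM value: Ccnd1, Mcm4 and Rrm2 as in the counts, and Ccnd2, Mcm2, Aurka and Top2a besides. The 3 with no overlap in both measures stood against 5.66% of those genes, and 0 members had all KO libraries above WT in TPM, against 6.17%. Ccnd1 measured 277, 235 and 233 TPM in WT and 76.1, 93.5 and 109 TPM in KO. Top2a was where the tables differed most for an abundant member, with 49.4, 62.6 and 60.5 TPM in WT and 2.95, 11.1 and 23.8 TPM in KO, although its counts overlapped. Aurka, a spindle pole kinase, measured 44.3, 37.6 and 28.6 TPM in WT and was listed at 0 in KO replicate 26 (7.97 and 21.0 TPM in the other two), where its counts gave 32.1 CPM. limma on log2(TPM + 1) called none of the members in either experiment. Pcna differed as well, with 57.5, 86.4 and 37.4 TPM in WT and 1.22, 6.75 and 63 TPM in KO, in overlapping groups. In TAM-MG, 11 of 44 members had all KO libraries below WT in TPM, against 8.64% of the 12952 tested genes with a TPM value, and all 11 did so in counts too, against 7.16%, among them Ccnd1, Mcm6, Bub1b, Mcm2, Cdk1 and Pcna, while Top2a overlapped in TPM (42.4 and 71.9 in WT, 47.3, 29.8 and 49.0 in KO). Ccnd2, which overlapped in counts, was the 1 member with all KO libraries above WT in TPM (159 and 78.4 in WT, 179, 178 and 168 in KO), against 16.7% of those genes.

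Set side by side, 23 members were negative in both experiments, 14 in TAM-MG but not in bulk tumours, 4 in bulk tumours but not in TAM-MG, and 3 (Cenpf, E2f1 and Foxm1) in neither. Ccnd1, Mcm4 and Rrm2 were the 3 members whose KO libraries lay below WT in both, as did those of 1.26% of the 12667 genes tested in both. The difference of the genotype effect between the experiments, tested as an interaction over all 11 libraries, was called for 0 members by edgeR's quasi-likelihood test, while 0.225% of the 21342 genes tested were called. At an unadjusted p under 0.05 there was 1 member, Mybl2, against 12.2% of all genes, and its zeros in WT TAM-MG leave the size unread. DESeq2, which called 5.65% of all genes, called Mybl2, and the likelihood ratio test, which called 3.91%, called no member. For Mki67 the effect was lower in TAM-MG by a log2 value of -2.09 (SE 1.03), for Plk1, a mitotic kinase, by -1.81 (SE 0.88), and for Ccnd2 it was higher by 1.34 (SE 0.62), with adjusted p of 0.443, 0.439 and 0.416 by edgeR. For Ccnd1 the difference was 0.60 (SE 0.45).

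**Figure D4:**
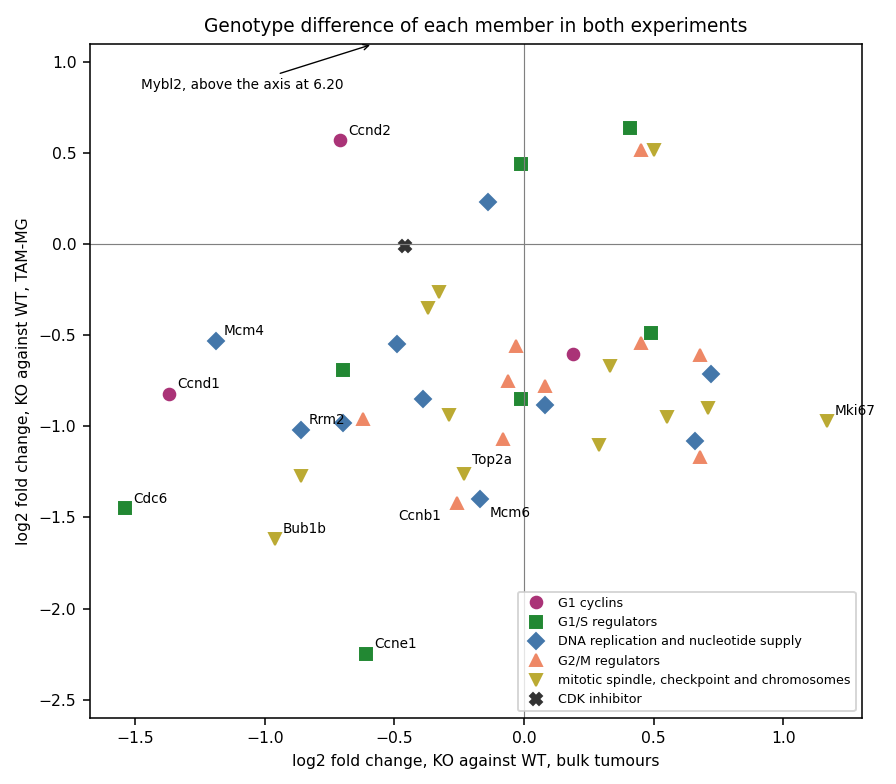
The log2 fold change of KO against WT for each member in bulk tumours (horizontal axis) and in TAM-MG (vertical axis), with roles by colour and shape; Mybl2 lies above the axis. Most points are below 0 on the vertical axis (37 of 44), while they spread to both sides of 0 on the horizontal axis (27 of 44 below).

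The other genes of the cell cycle came from 5 lists with 118 genes, of which 117 were tested in each experiment, and the quasi-likelihood test called 0 of them in either. In TAM-MG, 29 of 31 genes of kinetochore, spindle and cytokinesis were negative (median log2 fold change -0.97), as were 26 of 32 genes of replication origin and fork (-0.88) and 11 of 14 condensin and cohesin genes (-0.53). The 24 tested CDK, E2F and pocket protein genes (0.07) and the 16 CDK inhibitors and arrest genes (0.00) were evenly split. At an unadjusted p under 0.05, 8 genes were lower and 5 higher, beside 2.30% and 5.47% of all genes. Pttg1, the securin that guards cohesin until anaphase, measured 147 and 222 CPM in WT and 78.8, 69.9 and 101 CPM in KO (-1.15, SE 0.31), and Ckap2, a spindle protein, 46.2 and 39.6 CPM in WT and 16.6, 11.7 and 16.5 CPM in KO (-1.52, SE 0.46). Pola1, the catalytic subunit of the polymerase that starts new strands, measured 63.9 and 61.9 CPM in WT and 3.75, 9.06 and 11 CPM in KO (-2.98, SE 0.58). Each KO library was far below WT, and the gene was called by DESeq2 and by the likelihood ratio test. The cohesin and condensin subunits Smc1a (-0.73, SE 0.27) and Smc4 (-0.85, SE 0.43) also had all KO libraries below WT. Gadd45g, a stress-induced arrest gene, lay on the other side with 62.4 and 46.7 CPM in WT and 147, 124 and 134 CPM in KO (1.31, SE 0.29), and so did Mdm2, which degrades p53 (0.94, SE 0.36). Of the E2F list, Lin9 of the MuvB complex (0.125 and 1.60 CPM in WT, 4.46, 11.8 and 39.6 CPM in KO) and E2f7 (at most 5.26 CPM in any TAM-MG library) had the smallest p, with WT levels near 0.

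In bulk tumours the medians of these 5 lists lay between -0.11 and 0.24. There 6 genes were lower and 9 higher at an unadjusted p under 0.05, beside 5.19% and 3.82% of all genes. Cdkn1a, the inhibitor p21 that p53 induces, measured 226, 250 and 156 CPM in WT and 566, 499 and 448 CPM in KO (log2 fold change 1.26, SE 0.29, adjusted p = 0.186 by the quasi-likelihood test and 0.00216 by DESeq2). Every KO tumour was above every WT tumour. Sesn1, a p53 target that restrains mTORC1, had the same order (8.50, 14.7 and 10.2 CPM in WT, 55.9, 32.9 and 34.9 CPM in KO), as had Tfdp2, a partner of E2F (9.50, 18.5 and 29.8 CPM in WT, 79.3, 57.3 and 73.4 CPM in KO). Myc, a driver of G1 entry, lay the other way, with 47.4, 73.0 and 62.7 CPM in WT and 26.6, 22.1 and 20 CPM in KO (-1.41, SE 0.42). Anln, a scaffold of the cytokinetic ring, was also lower in each KO tumour (196, 186 and 203 CPM in WT, 82.4, 50.9 and 114 CPM in KO), while the chromosome motor Kif22 was higher in each (1.08, SE 0.41). Orc3, an origin recognition subunit (1.28, SE 0.47), the condensin subunit Ncapd2 (0.97, SE 0.42) and the cohesin subunit Smc3 (0.58, SE 0.30) completed the genes with the smallest p of their lists. Of the 118 related genes 0 were called in the interaction by the quasi-likelihood test (0.225% of all genes). DESeq2 called 9 (5.65% of all genes) and the likelihood ratio test 3 (3.91%). At an unadjusted p under 0.05, 12 were lower and 5 higher (2.93% and 9.30% of all genes). The genes with the smallest p of the lists included Orc1, Sesn1, Ccng2, Myc, Tfdp2, Ncapd2, Ncapd3, Tacc3 and Ckap2.

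The last comparison set the level of the members in TAM-MG against that in bulk tumours, over all 11 libraries on 1 TMM scale. TAM-MG were sorted fresh cells and the bulk RNA came from fixed, paraffin-embedded tissue, so sample type and RNA source cannot be told apart. The members were close to equal in both kinds of sample on this scale, with a median log2 fold change of 0.13 against -0.89 for all 21342 genes. In WT libraries they summed to 3720 and 4230 CPM in TAM-MG and to 3160, 3530 and 2650 CPM in tumours. The test called 9 members higher in TAM-MG (20.5% of all genes were called higher) and 6 lower (32.4%). Several marker lists moved far more. All 10 resting microglia markers were higher (median 7.16), and all 8 neuron markers were lower (-7.33). All 8 precursor and glioma markers were negative (-4.20, 6 of them called). Other lists lay nearer to the median of all genes: erythroid cells at -0.74, monocytes and blood macrophages at -1.60 and endothelial cells at -1.72. The split of calls depended on the scaling. Without TMM, by library size only, 2 members were higher and 10 lower, and with the means of log CPM set equal 16 were higher and 3 lower. Scaling by library size moved the median of all genes to -1.45 and the equal means moved it to -0.23, so a member's direction here is relative to that median.

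The replication genes stood on the higher side in counts, with 10 of 10 positive and 6 called. By library size only, the calls of Pcna, Rrm1, Rrm2, Mcm3 and Mcm2 were lost. In mean TPM, Mcm7 had the opposite order (51.4 in tumours, 35.6 in TAM-MG), and Mcm3 (73.1 and 71.2) and Mcm5 (35.8 and 36.5) were level. The other replication genes were higher in TAM-MG in TPM too, from 18.6 and 20.9 for Mcm2 to 7.03 and 124 for Tyms. Mcm4 ranged from 46.9 to 105 CPM in TAM-MG (median 90.7, n = 5) and from 11.1 to 51.5 CPM in tumours (median 24.1, n = 6), with a log2 fold change of 1.76 (SE 0.34, adjusted p = 0.00159 by edgeR's quasi-likelihood test). Pcna ranged from 114 to 232 CPM in TAM-MG (median 179) and from 28.7 to 105 CPM in tumours (median 90.7), with no overlap (1.12, SE 0.31). Rrm1 had no overlap either, at 51.7 to 168 CPM (median 82.3) against 19.6 to 48.9 CPM (median 38.2), and its log2 fold change was 1.41 (SE 0.39). Mcm3 was at 111 to 288 CPM (median 166) in TAM-MG and 19.6 to 112 CPM (median 60.0) in tumours (1.44, SE 0.42), Rrm2 at 39.3 to 126 against 26.1 to 58.5 CPM (1.07, SE 0.30) and Mcm2 at 45.5 to 106 against 21.0 to 60.2 CPM (0.91, SE 0.31). The last was the least firm of the 9, since leaving out any of 10 of the 11 libraries ended its call. Cdk2, which drives S phase, was at 34.9 to 104 CPM in TAM-MG (median 58.5) and 17.9 to 25.2 CPM in tumours (median 23.5), without overlap (1.45, SE 0.35). Cdc20 was at 71.1 to 238 CPM (median 195) in TAM-MG and 30.7 to 116 CPM (median 58.7) in tumours (1.36, SE 0.37).

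Ccnd3 was the cyclin called higher, at 23.2 to 211 CPM in TAM-MG (median 57.6) and 4.94 to 35.7 CPM in tumours (median 7.16), with a log2 fold change of 2.88 (SE 0.78, adjusted p = 0.0104 by edgeR). Its mean was 132 TPM in tumours and 65.8 TPM in TAM-MG, an order opposite to that of the counts, and without TAM-MG WT replicate 74 its call was lost. Ccnd2 was called lower, at 87.4 to 262 CPM (median 239) against 192 to 498 CPM (median 455), with a log2 fold change of -0.90 (SE 0.31), while its means of 65 TPM in tumours and 152 TPM in TAM-MG were also in the opposite order. Ccnd1 was not called (0.32, SE 0.22): its mean was 277 CPM in WT tumours and 282 CPM in WT TAM-MG, but 171 TPM over all tumours and 59.6 TPM over all TAM-MG. Ccnd1 and Ccnd2 had the highest mean CPM per kilobase of exon of all members in tumours. On that scale, the mean of the D cyclins in TAM-MG was 45.2 for Ccnd1, 22.5 for Ccnd2 and 12.3 for Ccnd3, and in tumours 40.9, 40.3 and 1.71.

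Besides Ccnd2, the members called lower in TAM-MG were 2 factors of the mitotic wave, a kinetochore gene, a mitotic ubiquitin enzyme and the brake Cdkn1b. Foxm1, a factor of that wave, was at 1.07 to 7.31 CPM in TAM-MG (median 6.32) and 23.0 to 78.2 CPM in tumours (median 46.4), with a log2 fold change of -3.21 (SE 0.60, adjusted p = 0.00137 by edgeR). Cdkn1b was at 13.8 to 51.1 CPM (median 37.9) against 78.9 to 201 CPM (median 133), also without overlap (-1.87, SE 0.39). These calls held in all 8 other settings and with each library left out. Cenpf, a kinetochore protein, was at 0.665 to 43.6 CPM (median 15.4) against 86.0 to 211 CPM (median 117, -2.88, SE 0.84). Mybl2 was at 0 to 10.2 CPM (median 0.128) against 2.37 to 15.1 CPM (median 6.71), and leaving out any of 5 libraries ended its call. Ube2c, which helps to degrade cyclins in mitosis, was at 23.8 to 57.4 CPM (median 44.1) against 37.7 to 186 CPM (median 78, -1.27, SE 0.44). Top2a was at 84.0 to 342 CPM (median 130) against 104 to 501 CPM (median 295) and was not called (-0.98, SE 0.40, adjusted p = 0.0567 by edgeR), nor was Plk1 (-0.97, SE 0.45, adjusted p = 0.0906 by edgeR), which was at 9.84 to 60.6 CPM (median 39.1) against 36 to 156 CPM (median 59.3). Kif20a, a motor of cytokinesis, was at 39.7 to 93.4 CPM in TAM-MG and 0 to 26.2 CPM in tumours (2.96, SE 1.21, adjusted p = 0.0574 by edgeR), without overlap, although its mean was 16.3 TPM in tumours and 10.1 TPM in TAM-MG. Mki67 (0.08, SE 0.51), Cdk1 (-0.13, SE 0.36) and Ccnb1 (0.03, SE 0.39) overlapped widely.

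**Figure D5:**
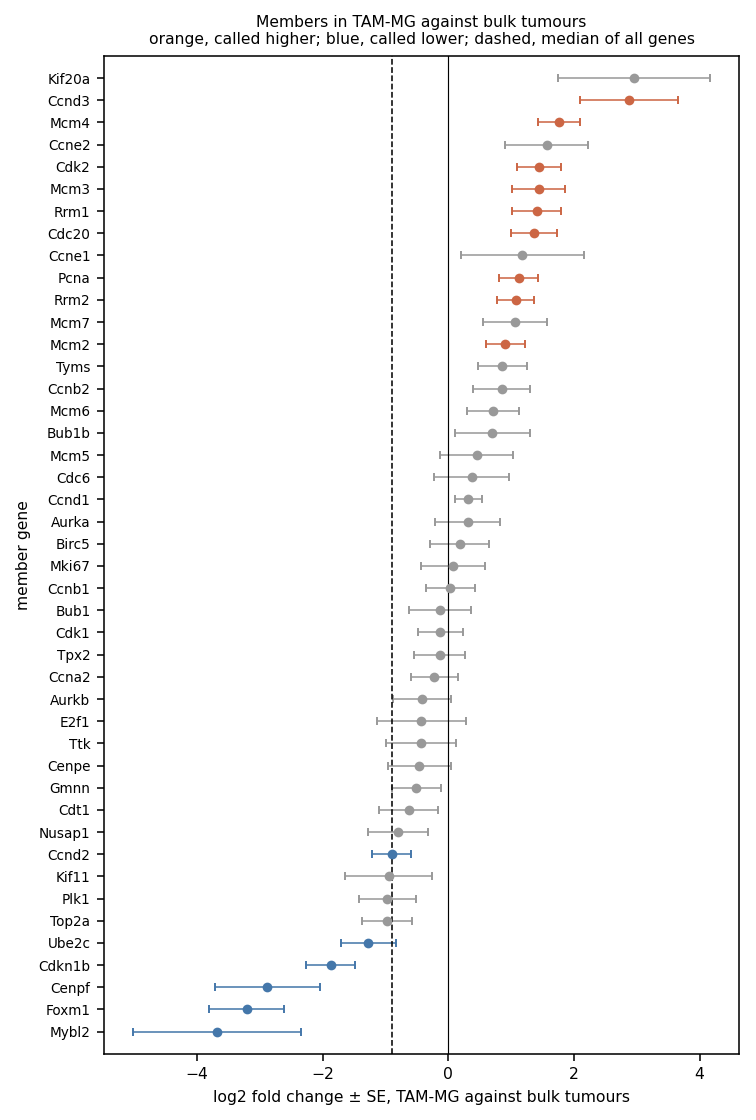
The log2 fold change of each member in TAM-MG (5 libraries) against bulk tumours (6 libraries) with its SE, ordered by size; orange marks the 9 called higher, blue the 6 called lower and grey the rest, and the dashed line is the median of all genes (-0.89). The replication genes lie on the right, and Foxm1, Mybl2, Cenpf and Cdkn1b on the left.

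Of the 118 related genes, 23 were called lower and 23 higher in TAM-MG, where 32.4% and 20.5% of all genes were. The counts by list below stand beside the same shares. Of the condensin and cohesin genes 7 of 14 were called lower and 1 higher, with a median log2 fold change of -0.96 that was close to the -0.89 of all genes, and those called lower included Rad21 (62.3 to 112 CPM in TAM-MG, 114 to 373 CPM in tumours) and Stag1 (22.5 to 41.3 against 59.7 to 97.8 CPM), a cohesin subunit each. Of the CDK inhibitors and arrest genes 6 of 16 were called higher and 1 lower. Btg2, an antiproliferative early response gene, was at 814 to 2750 CPM in TAM-MG and 11.3 to 39.6 CPM in tumours (6.67, SE 0.40), and Sesn1 at 101 to 131 CPM against 6.97 to 47.0 CPM (2.71, SE 0.28). Replication origin and fork genes were called in both directions (7 of 32 higher, 5 lower). The clamp loader Rfc2 was at 483 to 642 CPM against 11.8 to 65.8 CPM (3.89, SE 0.41). Fen1, which trims Okazaki fragments, was at 53.1 to 194 CPM in TAM-MG and at most 0.274 CPM in tumours, so no fold is read. Of the kinetochore list 2 of 31 were higher and 5 lower, with the checkpoint gene Bub3 at 329 to 663 CPM against 79.4 to 154 CPM (2.13, SE 0.23) and Cks2, a CDK-binding subunit, at 15.6 to 22.6 CPM against 27.7 to 115 CPM (-1.93, SE 0.39). Of the CDK and E2F list 7 of 25 were higher and 5 lower, led by Myc (92.1 to 298 CPM against 16.6 to 60.8 CPM) and Cdk7, the kinase that activates other CDKs (71.3 to 148 CPM against 19.3 to 58.9 CPM).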

How the data were processed

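RNA was measured in 6 bulk GL261 tumours and 5 sorts of TAM-MG. Per the labels and methods, the authors made the deposited gene counts with STAR and the deposited TPM values with Salmon on GRCm38. The TAM-MG tables end with an unnamed total equal to 100% of the gene sum, which was left out, and the bulk TPM table lists 12719 genes. The test on counts was that of edgeR 4.0.16 (R 4.3.3), with filterByExpr (minimum count 10, total 15), TMM scaling and the quasi-likelihood test, with a call at a Benjamini-Hochberg adjusted p under 0.05 over all genes tested and a change of 1.5-fold. The SE is the log2 fold change divided by the square root of F, and the fit was tested on simulated data. The simulation used a single fixed dispersion for all genes, so it does not show the power of the test in these libraries. The difference of genotype effects and the levels between sample types came from 1 fit of all 11 libraries. The alternatives were DESeq2 1.42.0, edgeR's likelihood ratio test, other scalings and filters, each library left out, and limma 3.58.1 on log2(TPM + 1) and log2(TPM + 0.1) for genes with at least 1 TPM in 2 libraries. The labels do not say whether libraries of a group came from separate animals, so p-values measure the spread between these samples. Members and lists were chosen with earlier results of these data known. Per-library values were given for the 8 members with the smallest p per genotype comparison (8 in each direction between sample types) and for Mki67, Top2a, Pcna, Ccnd1, Ccnd2, Ccnd3, Cdk1 and Cdkn1b, and the 2 genes with the smallest p of each related list were named, except 1 gene that is not reported here. Other members with values were chosen after these were seen. All columns of the tables were mapped to samples, and 99.4% of gene identifiers had a name.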

Additional observations from a re-analysis of the deposited data

How the results depend on the processing

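No paired analysis was possible because the WT and KO libraries share no replicate number. At the adjusted p and fold used, the quasi-likelihood test called 0 members with any library left out, in bulk tumours, in TAM-MG and in the interaction, and 0 related genes except in the interaction (1 lower and 1 higher without TAM-MG WT replicate 78), while DESeq2 called 1 member in each of the 3 comparisons and edgeR's likelihood ratio test called 1 in bulk tumours; of related genes DESeq2 called 5 in bulk tumours and 6 in TAM-MG, and the likelihood ratio test 3 and 2. With each library left out in turn, the number of members with a negative log2 fold change ran from 16 to 34 in bulk tumours and from 32 to 38 in TAM-MG, and their median from -0.47 to 0.12 and from -1.22 to -0.54. With equal means of log CPM the TAM-MG median was -1.23, beside -0.34 for all genes. Between sample types, members called higher in TAM-MG were 2 by library size only, 16 with equal means and 4 in WT libraries alone, and 5 to 9 with 1 library left out; those called lower were 10 by library size only and 3 with equal means, and 4 to 8 with 1 library left out. The median level difference was -0.43 by library size only, 0.82 with equal means and -0.33 to 0.32 with 1 library left out. Related genes called lower in TAM-MG were 6 with equal means and 6 in WT libraries alone, and 21 to 29 with 1 library left out.

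The other settings turned the sign of 22 of 439 single values of the 44 members in bulk tumours and of 8 of 438 in TAM-MG, and leaving out 1 library turned 36 of 264 and 15 of 218; the cause was not tested. Of the members with values in the text, Cdk1 in bulk tumours was 0.07 with equal means, and in TAM-MG Rrm1 was -0.19 with equal means and -0.06 and -0.06 by limma on both TPM scales, and Cdkn1b was 0.02 without a filter, 0.00 where every library held 10 or more counts and 0.05 in the joint fit. With 1 library left out, Ccnd3 ran from -1.19 to 1.27, Cdk1 from -0.33 to 0.29 and Top2a from -0.92 to 0.18 in bulk tumours, and Ccnd3 from -2.16 to 0.67, Rrm1 from -0.32 to 0.92 and Cdkn1b from -0.31 to 0.39 in TAM-MG. Every library held at least 14940787 counts, and the 2 or 3 libraries a group limit what the comparisons can show.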
